A study of Homo sapiens with 12 samples.

Results

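The comparison described here set 2 libraries of Hs-578T cells labelled ERK5-ko against 2 libraries of their parental controls, 4 of the 12 libraries of the series. Hs-578T is an established triple-negative breast cancer line of mesenchymal shape, and MAPK7 encodes ERK5, a mitogen-activated protein kinase. The libraries were taken by their sample names. The parental controls carry no treatment in the labels and are marked passage 83 and 84, and the libraries labelled ERK5-ko are marked passage 8 and 9. The study's methods give passage 70 for the cells from which the knockout lines were made. The labels do not say whether 8 and 9 are counted from that point, so the marks of the 2 groups may not share a scale. The study's methods describe the knockout cells as clones grown from single GFP-sorted cells after transfection with Cas9 and several guides against MAPK7. The labels do not say which clone was sequenced or whether both libraries come from the same one, so genotype, clone and passage cannot be told apart. Another Hs-578T group, labelled MEK5DD for an active form of MEK5, shares the line and the culture protocol and gave 2 more libraries for reference. Its libraries are marked passage 8 and 9 as well. RNA was harvested at 70% confluence in all groups.

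ERK5 is activated by the kinase MEK5, which itself lies under MEKK2 and MEKK3. Active ERK5 enters the nucleus, phosphorylates MEF2 factors and promotes the transcription of KLF2, KLF4 and immediate early genes, and it is known as a relay of growth factor and stress signals in endothelial and tumour cells. Mesenchymal breast cancer cells such as Hs-578T secrete matrix, keep low cadherin-1 and rely on actomyosin contraction, on YAP/TEAD transcription and on receptor kinases such as AXL.

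Values are RPKM, the reads on a gene scaled to the length of its gene model and to the total reads of the library. Library totals recovered from the values lay between 20722185 and 26239268 reads in the 4 libraries. Differences are on the log2(RPKM + 0.5) scale, so that the change of genes with low RPKM is understated, and each ± after a log2 fold change is a standard error. Where a pair of values is set against another, or a gene rose or fell from one to the other, the first pair gives parental controls 1 and 2 and the second the labelled libraries 1 and 2. A gene was said to be higher or lower where its adjusted p in limma was under 0.05 over the 13737 protein-coding genes tested. The labels give no separate clones or cultures within a group, so p-values measure the spread between libraries only. This spread was pooled over all 12 libraries, and the MDA-MB-231 groups varied less between replicates than the Hs-578T parental group. With the Hs-578T libraries alone fewer genes passed, as the closing section gives.

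MAPK7 (chr17:19377721-19383544 of GRCh38, plus strand) had 14 and 16 RPKM in parental controls 1 and 2 and 17.8 and 18.1 RPKM in libraries 1 and 2 labelled ERK5-ko. Both labelled values lay above both parental values, at a log2 fold change of 0.26 ± 0.101 that did not pass (adjusted p = 0.0624, limma). A short insertion or deletion that ends the reading frame need not change the RPKM of a gene, so these values do not check the label. The study itself reports strongly reduced ERK5 protein in its Hs-578T knockout cells by Western blot, and it checked clones by qRT-PCR and Western blot. The labels do not tie the sequenced libraries to a clone that was blotted. All directions below refer to the labels. MAPK7 overlaps B9D1 and MFAP4 on the opposite strand, and the strand setting of the counting is not given in the sources used here.

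As a check of the cells, VIM, an intermediate filament of mesenchymal cells, had 3608 and 3433 RPKM in the parental and 3449 and 3352 RPKM in the labelled libraries. ESR1, the oestrogen receptor, lay at or under 0.103 RPKM and PGR, the progesterone receptor, at or under 0.348 RPKM in the 4 libraries, while ERBB2 had 38.9 and 43.8 against 33.3 and 36 RPKM. The T cell gene CD3E was at 0 reads in all 6 Hs-578T libraries, EPCAM had at most 2 reads and the endothelial CDH5 at most 1 read. For 7 endothelial genes, summed RPKM was 11.5 to 12.5 in the parental and 11.2 to 11.4 in the labelled libraries. ERG and PECAM1 made up nearly all of it. Summed RPKM of 7 adipocyte genes was 8.94 to 10.5 in the parental and 34.8 to 35.0 in the labelled libraries, nearly all of it FABP4 and PPARG, while ADIPOQ had at most 2 reads. Summed RPKM of 8 leukocyte genes was 39.6 to 45.1 and 23.8 to 26.4, nearly all of it CD68, a lysosomal protein of macrophages and other cells. The part of such cells in the results was not tested.

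The parental controls differed from each other more than the labelled libraries did. The SD of the log2 difference between replicates was 0.28 over all tested genes in the parental group, 0.17 in the group labelled ERK5-ko, 0.32 in the group labelled MEK5DD, and 0.13 to 0.18 in the MDA-MB-231 groups. Between the parental controls, 75 genes (0.55%) differed by over 2-fold, 54 of them higher and 21 lower in replicate 2, against 3 genes between the libraries labelled ERK5-ko. A few immediate early genes were higher in parental control 1, while the median difference of parental control 2 minus 1 over the 19 tested AP-1 and immediate early factors was -0.07. FOS, a subunit of the AP-1 factor, had 110 and 10.1 RPKM in parental controls 1 and 2 and 12 and 19.5 in the labelled libraries. 3 other such genes went the same way, with FOSB at 5.81 and 0.969 RPKM, DUSP1, a phosphatase of MAP kinases, at 30.9 and 10.6 RPKM and EGR1 at 25.2 and 10.2 RPKM in parental controls 1 and 2. Genes with long gene models were higher in parental control 2. AHNAK, a giant scaffold protein, had 46.7 and 136 RPKM, DST, a spectraplakin that links filaments, had 10.3 and 31 RPKM and FAT1, a giant cadherin, had 31.8 and 87.8 RPKM in parental controls 1 and 2. In the labelled libraries these had 150 and 146, 30.3 and 30.9 and 120 and 111 RPKM, nearer to parental control 2 than to parental control 1. PRUNE2 went from 4.52 to 13.1 RPKM and HECTD4, a ubiquitin ligase, from 2.56 to 7.58 RPKM between the parental controls, and both labelled libraries lay between these values for both genes. The pseudogene entry ATP5EP2 and RP11-1099M24.7 completed the genes with the largest drop, at 2.74 and 0.377 and 16.5 and 4.94 RPKM.

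This spread followed the counted length of the genes, that is, the length by which the RPKM values were divided. With the genes split by counted length into 4 bins of near equal number, in the shortest bin (176 to 1145 bases) the median log2 difference of parental control 2 minus 1 was -0.13, and in the longest bin (2295 to 27165 bases) it was 0.16. The same medians were 0.00 and 0.04 between the labelled libraries and -0.13 and 0.24 between the MEK5DD libraries. Spearman's rho of counted length with the replicate difference was 0.46 in the parental group and 0.10 in the labelled group, over 13737 genes that share their libraries and are not independent. The change itself also followed length, with a median log2 fold change of -0.10 in the shortest and 0.14 in the longest bin (rho 0.21). Against parental control 2 alone these medians were -0.02 and 0.04, and against parental control 1 alone -0.17 and 0.22. The cause of this pattern was not tested. A list count that moved by more than 1.5 times and by at least 3 genes with 1 of the 4 libraries left out, or with length-adjusted values, is given with that other count. Over all tested genes, 1467 were higher and 1690 lower without labelled replicate 2, and 2077 and 2068 without labelled replicate 1. Length-adjusted values have a smooth curve on counted length removed from each library, a step chosen after seeing the data.

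**Figure D1:**
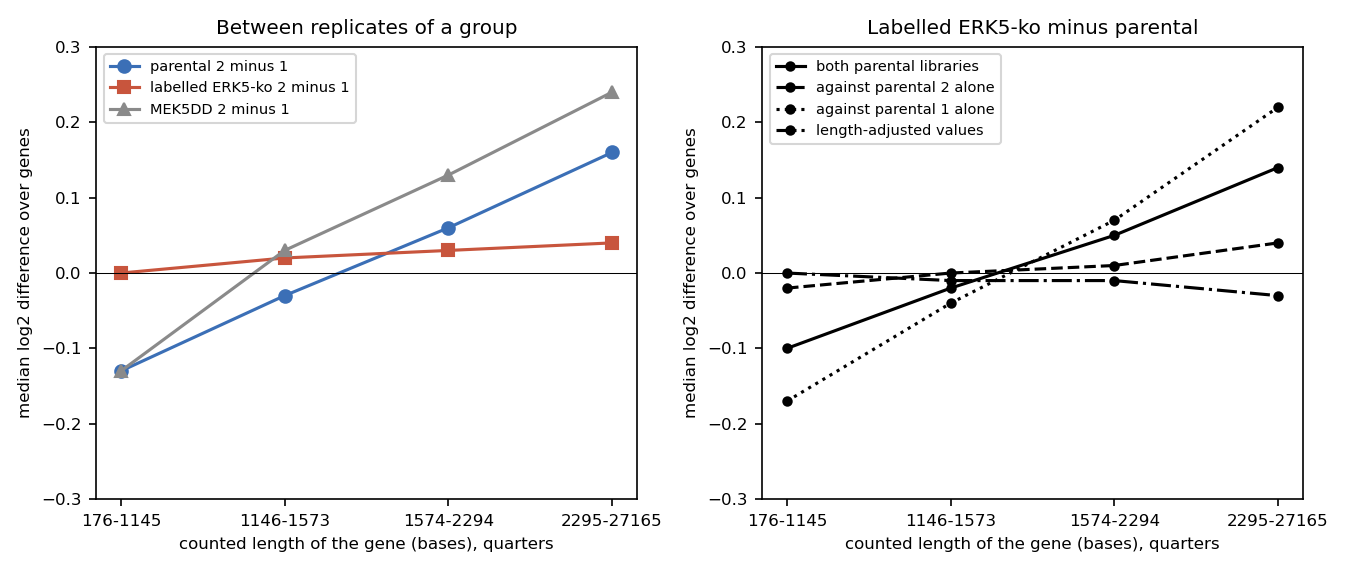
Median log2 difference over genes in 4 bins of the counted gene length, in bases, for replicate 2 minus 1 of the 3 Hs-578T groups (left) and for libraries labelled ERK5-ko minus parental controls under 4 settings (right), on linear axes. The parental and MEK5DD lines rise with length to 0.16 and 0.24, the line of the labelled libraries stays between 0.00 and 0.04, and the change rises to 0.22 against parental control 1 alone and to 0.04 against parental control 2 alone.

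Over all tested genes, 1285 (9.35%) were called higher at a fold above 1.5 and 449 (3.27%) were called lower at a fold below 0.5, thresholds that are not symmetric. With a fold of 1.5 in both directions 1343 were lower, so that 48.9% of the calls were higher. At the adjusted p alone, 2706 genes (19.7%) were higher and 2707 (19.7%) were lower, and the median log2 fold change was 0.01. The groups did not overlap for any of the 1734 called genes, nor for 69.8% of all tested genes. Of the genes called higher, 897 had their nearest libraries over 1.5-fold apart, and of those called lower, 363 had them over 2-fold apart. Of the genes called higher, 1169 were also higher than in the MEK5DD libraries, 102 did not pass that test and 14 were lower. Of those called lower, 400 were also lower than in the MEK5DD libraries, 41 did not pass and 8 were higher. Over all 13737 tested genes, 4224 were higher and 2642 lower than in the MEK5DD libraries. The same labelled libraries enter both comparisons, so the overlap of these calls is in part built in.

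RNASE1, a secreted ribonuclease known from endothelium and pancreas, had 0.193 and 0.16 RPKM in the parental and 36.1 and 30.7 RPKM in the labelled libraries, a log2 fold change of 5.64 ± 0.118. PLXDC2, a transmembrane receptor, had 0.0459 and 0.11 against 12.2 and 12.4 RPKM, and SPINK1, a secreted trypsin inhibitor, had 0.401 and 0.147 against 10.9 and 13.7 RPKM. IL7R, the receptor chain for interleukin 7, had 2.03 and 2.02 RPKM in the parental and 23.8 and 34.5 RPKM in the labelled libraries. For the receptors PLXDC2 and IL7R the labelled libraries lay at 12.2 RPKM or above and the parental controls at 2.03 RPKM or below. ADD2, an adducin of the membrane skeleton, rose from 1 and 1.17 to 21.7 and 24.2 RPKM, and SGCD, a sarcoglycan of the dystrophin complex, from 1.39 and 1.66 to 18.8 and 22 RPKM. CLIC2 (a chloride channel family protein), TMTC2 (a mannosyltransferase of cadherins), the keratin-associated KRTAP7-1, LUZP2, MFAP5 (a microfibril glycoprotein) and STK31 completed the 12 highest, with log2 fold changes between 3.27 and 3.93 for the last 4 and of 3.91 and 3.89 for the first 2. The adjusted p of the 12 genes lay between 2.89e-10 and 2.17e-06 (limma).

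CYTL1, a secreted cytokine-like protein, had the lowest log2 fold change, -6.71 ± 0.169 (adjusted p = 8.43e-10, limma). It had 63.5 and 60.4 RPKM in the parental controls and 2 and 1 reads in the labelled libraries, where the ratio of reads scaled to library totals was 638, with a 95% exact interval of 218 to 3096 that covers counting error only. COX7A1, the muscle form of a cytochrome c oxidase subunit, had 89 and 55 reads in the parental controls and 0 in both labelled libraries, at least 27.5-fold lower against a floor of 3 reads per library. In the MEK5DD libraries it had 29.5 and 16.4 RPKM. PAGE5 and PAGE2, cancer-testis antigens on the X chromosome, fell from 15.8 and 15.8 to 0.418 and 0.755 RPKM and from 46.2 and 38.9 to 6.22 and 6.07 RPKM, and both belong to a family of near-identical copies, so their reads are uncertain. ASPN, a small leucine-rich proteoglycan, went from 5.43 and 5.67 to 0.0812 and 0.141 RPKM, and it lies within CENPP on the opposite strand. L1CAM, a neural adhesion molecule, had 77.1 and 97.5 RPKM in the parental and 12.5 and 11.3 RPKM in the labelled libraries. SECTM1, a secreted immune ligand, had 116 and 137 against 21.1 and 16.9 RPKM, and TMEM119, known from microglia and osteoblasts, had 52.1 and 59 against 6.7 and 6.72 RPKM. SLC14A1 (a urea transporter), PI15 (a protease inhibitor), NID2 (a basement membrane linker) and ABCC3 (an efflux pump of conjugates) completed the 12 lowest, with log2 fold changes of -3.18, -3.14, -2.74 and -2.68.

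**Figure D2:**
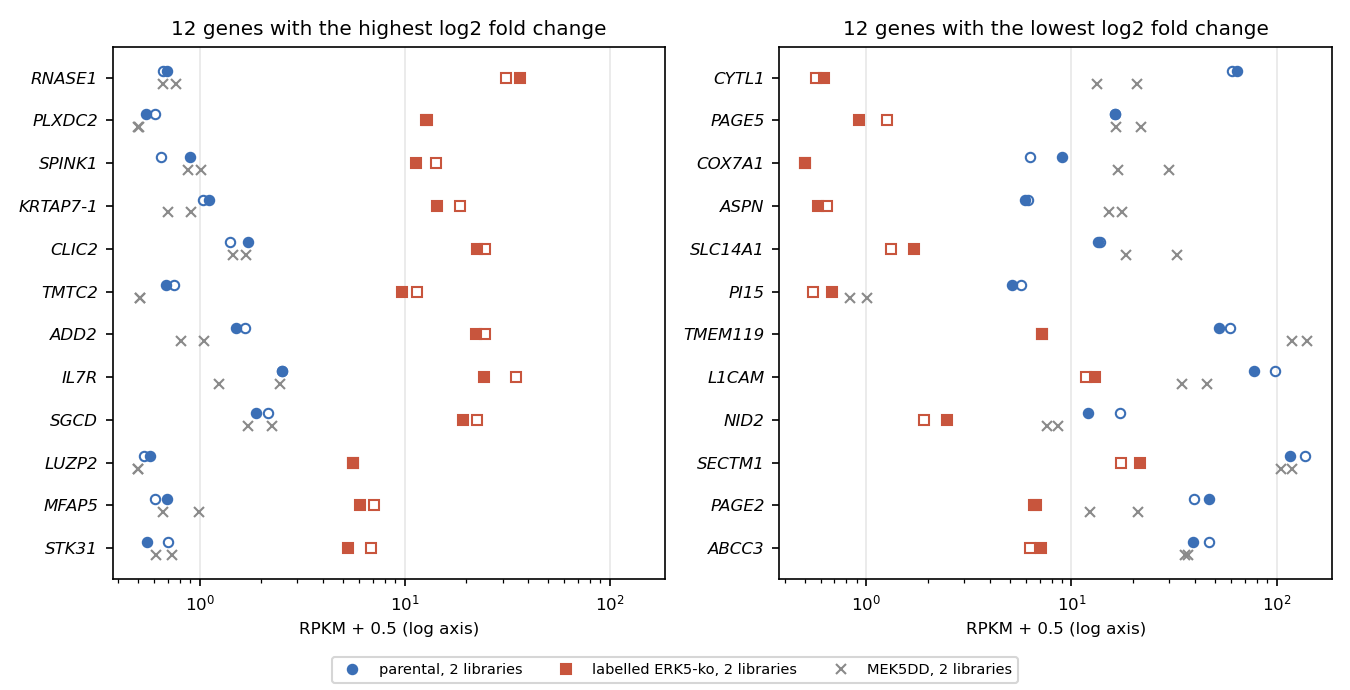
RPKM plus 0.5 on a log axis of the 12 genes with the highest and the 12 with the lowest log2 fold change (called genes whose mean RPKM was 1 or more), with 1 point a library (filled, replicate 1, and open, replicate 2, for parental and labelled ERK5-ko libraries, crosses for both MEK5DD libraries). Both labelled libraries lie outside both parental controls for all 24 genes, which was a condition of their choice. The MEK5DD libraries of the 12 genes on the left, chosen for high labelled values, stay under every labelled library.

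Genes of the cell cycle and of DNA replication had the highest shares of higher members among the lists with at least 10 tested genes. All 40 tested members of a list of cell cycle and mitosis genes were higher in the labelled libraries, with a median log2 fold change of 0.76 and a range from 0.34 to 1.53. Of 42 DNA replication genes, 41 were higher and none was lower, with a median of 0.82. The exception, named after its values were seen, was POLE2, a polymerase subunit, at 4.38 and 3.08 against 5.07 and 5.04 RPKM (adjusted p = 0.06, limma). Over all tested genes the shares were 19.7% in either direction. MKI67, the proliferation antigen Ki-67, had 4.97 and 11.2 RPKM in parental controls 1 and 2 and 22 and 23.3 RPKM in the labelled libraries, a log2 fold change of 1.53 ± 0.317 (adjusted p = 0.00281). Parental control 2 was above 2-fold parental control 1 for this gene, whose counted length falls in the longest bin. CENPE, a kinetochore motor, had 4.81 and 6.24 against 15.5 and 17.9 RPKM. MCM10, which loads polymerases at origins, had 3.38 and 3.45 against 10.5 and 11.5 RPKM and GINS4, a part of the replicative helicase, had 31.7 and 27.8 against 79.1 and 85.2 RPKM, with adjusted p of 1.78e-06 and 1.25e-05. These replication genes differed little between the parental controls.

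The count of cell cycle genes higher was 37 without parental control 1, 36 without parental control 2 and 40 with length-adjusted values, and that of replication genes 41, 39 and 42. The median log2 difference of parental control 2 minus 1 was -0.10 in both lists, opposite in sign to the long genes. The medians against the MEK5DD libraries were 1.58 and 1.53, larger than against the parental controls. All groups were harvested at the same stated confluence, and a larger share of dividing cells and more RNA of these genes per cell cannot be told apart. The replication-dependent histones, whose RNA lacks a poly(A) tail in dividing cells and which poly(A) libraries catch poorly, did not follow, with 0 higher and 6 lower of 27. Among 22 targets of p53, 4 were higher and 7 lower. CDKN1A, the cyclin-dependent kinase inhibitor p21, rose from 27 and 23.7 to 38.3 and 42.2 RPKM and MDM2, the ligase of p53, from 13.6 and 18 to 23.6 and 27.1 RPKM, while the death receptor FAS fell from 33.5 and 32.1 to 19.9 and 18.1 RPKM and BTG2 from 3.17 and 2.28 to 1.28 and 1.29 RPKM. FAS overlaps ACTA2 on the opposite strand. Without labelled replicate 2 the cell cycle genes higher numbered 30 and the replication genes 39, and the p53 targets lower numbered 3.

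Promoters of these genes are shown because the members moved together. RefSeq promoters of 300 bases (250 before to 50 after the start, GRCh38.p14) were matched by symbol for 10281 tested genes, and 69 of the 82 list members had one. The pentamer CCAAT, bound by NF-Y, stood on either strand in 63.8% of the 69 promoters and in 36.3% of those of the other tested genes. Its share was 42.0% in genes called higher and 29.3% in genes called lower. TTTGAA, the core of the cell cycle homology region (CHR), stood in 30.4%, 9.6%, 18.6% and 7.6% of these sets. Of the 2 lists, 33 of 40 and 34 of 42 members were themselves called higher, so the lists and the genes called higher overlap. Both motifs were chosen after the lists were known, and a match is a description of the letters, not a site. The 250 bases before the start follow for 3 of the genes named above, in lower case with matches of these motifs in capitals. Also in capitals are the AP-1 motif, searched as TGANTCA on both strands, the E-box, searched as CACGTG, the CRE core, searched as TGACGTCA, the interferon response motif, which is a pair of TTTC blocks with any 2 bases between them, and the MEF2 motif.
MKI67 (chr10:128126424-128126673, minus strand): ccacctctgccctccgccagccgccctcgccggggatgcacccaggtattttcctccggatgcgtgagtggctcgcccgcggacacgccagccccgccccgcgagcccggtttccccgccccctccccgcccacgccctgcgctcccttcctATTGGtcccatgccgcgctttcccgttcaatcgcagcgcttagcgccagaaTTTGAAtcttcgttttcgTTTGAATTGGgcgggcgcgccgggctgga
CENPE (chr4:103198344-103198593, minus strand): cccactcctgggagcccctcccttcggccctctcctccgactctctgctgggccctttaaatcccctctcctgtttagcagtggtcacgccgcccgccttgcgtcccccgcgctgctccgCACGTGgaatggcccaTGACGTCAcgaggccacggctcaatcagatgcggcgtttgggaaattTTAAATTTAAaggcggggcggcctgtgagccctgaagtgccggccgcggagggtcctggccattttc
MCM10 (chr10:13161308-13161557, plus strand): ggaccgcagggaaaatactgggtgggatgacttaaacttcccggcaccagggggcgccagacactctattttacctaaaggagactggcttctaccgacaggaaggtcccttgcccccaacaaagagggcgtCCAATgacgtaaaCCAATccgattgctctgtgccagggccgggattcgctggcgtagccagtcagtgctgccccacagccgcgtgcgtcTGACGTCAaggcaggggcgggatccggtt
In MKI67, the matches of TTTGAA begin 47 and 29 bases before the start and those of CCAAT on either strand 98 and 24 bases before it. CENPE has an E-box 130, a CRE core 114 and the MEF2 motif 67 bases before the start, and MCM10 has CCAAT 118 and 105 and a CRE core 29 bases before it.

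Shares of the other motifs are given for the called genes as a whole. The AP-1 motif stood in 4.9% of the promoters of genes called higher, 4.8% of those called lower and 4.7% of all tested genes. The MEF2 motif, of interest since MEF2 factors are substrates of ERK5, stood in 1.5%, 1.3% and 1.5%, the CRE core in 3.3%, 2.9% and 3.2%, the E-box in 8.9% and 8.9% of the promoters of called genes and in 1026 of the 10281, and the interferon response motif in 2.6%, 4.1% and 2.9%. The absence of a match says only that these letters were not in these windows. The promoter of RNASE1, the gene with the highest log2 fold change, held 1 match of the AP-1 motif, 134 bases before the start, and 1 of TTTGAA.
RNASE1 (chr14:20802845-20803094, minus strand): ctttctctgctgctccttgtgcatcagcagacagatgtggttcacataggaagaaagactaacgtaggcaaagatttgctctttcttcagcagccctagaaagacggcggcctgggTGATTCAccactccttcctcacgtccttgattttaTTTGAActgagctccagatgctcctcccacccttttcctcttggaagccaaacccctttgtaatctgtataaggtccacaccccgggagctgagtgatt

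Genes of the ERK5 cascade and its known targets were lower at a share near that of all tested genes, 20% against 19.7%. Over all tested genes the share higher was 19.7% as well. Of 10 listed genes, from MAP3K2 and MAP3K3 through MAP2K5 and MAPK7 to the MEF2 and KLF factors, none was higher and 2 were lower (MEF2B and MEF2C), with a median log2 fold change of -0.10. MEF2B had 5.36 and 5.74 against 4.25 and 4.09 RPKM (adjusted p = 0.0403, limma), and MEF2C had 1.39 and 1.44 against 0.501 and 0.585 RPKM. Among 19 AP-1 and immediate early factors, 6 were higher and 7 lower, and 4 were lower without parental control 1. FOSL1, the Fra-1 subunit of AP-1 and typical of mesenchymal breast cancer cells, rose from 48.6 and 48.5 to 119 and 118 RPKM (log2 fold change 1.27 ± 0.0903) and MAFF from 12.3 and 11.4 to 21.3 and 21.8 RPKM. The parental values of these 2 factors differed little. JUNB fell from 127 and 74.9 to 55.4 and 43.4 RPKM and EGR1 from 25.2 and 10.2 to 3.99 and 5.79 RPKM, in both cases with parental control 1 far above parental control 2. Feedback genes of the ERK1/2 cascade were more often higher, 7 of 18 with 1 lower. ETV4, an ETS factor, rose from 10.1 and 9.47 to 25.6 and 28.6 RPKM and DUSP4, a nuclear phosphatase of ERK1/2, from 1.01 and 0.955 to 3.3 and 3.1 RPKM, while SPRY1, an inhibitor of receptor kinase signalling, fell from 4.92 and 4.56 to 2.56 and 2.98 RPKM. Of 14 RGS regulators of G protein signalling, 2 were higher and 6 lower. RGS5, known from pericytes, rose from 11.5 and 8.78 to 22.6 and 24.1 RPKM and RGS2 fell from 6.59 and 6.36 to 3.46 and 3.29 RPKM. Without labelled replicate 2 the lower members numbered 3 in the AP-1 and 2 in the RGS list, and without labelled replicate 1 the AP-1 list had 3 lower and the feedback list 4 higher.

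The larger part of the contractile genes and of the YAP/TEAD targets were higher. Of 18 contractile and smooth muscle actin genes, 11 were higher and 1 lower, with a median log2 fold change of 0.60. ACTA2, smooth muscle alpha-actin, had 157 and 124 RPKM in the parental and 495 and 457 RPKM in the labelled libraries, and 52.5 and 60.6 RPKM in the MEK5DD libraries. ACTG2, the gamma form, had 94.5 and 60.7 against 294 and 248 RPKM (adjusted p = 1.7e-06 and 1.52e-05, limma). In both genes the lowest labelled library was above 2-fold the highest parental control. MYLK, the myosin light chain kinase, was the lower member, at 76.5 and 111 against 61 and 62.7 RPKM. The actin crosslinker FLNA rose from 589 and 751 to 1081 and 977 RPKM and FHL1, a LIM protein of muscle, from 670 and 513 to 1166 and 1149 RPKM, both among the most expressed genes that were higher. Of 24 YAP/TEAD genes and targets, 13 were higher and 2 lower. ANKRD1 rose from 2.75 and 2.16 to 11.8 and 13.6 RPKM (log2 fold change 2.16 ± 0.112) and CTGF, a matricellular protein, from 243 and 220 to 527 and 565 RPKM. FOXF2 and the factor TEAD2 fell, by 0.61 and 0.41 on the log2 scale. Counts without a parental control were 8 and 11 for the contractile genes higher and 11 and 12 for the YAP/TEAD list, and with length-adjusted values 11 and 14. For YAP/TEAD the higher members numbered 7 without labelled replicate 2.

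Inflammatory signals did not move as 1 group. For scale, 19.7% of all tested genes were higher and 19.7% lower. Of 16 targets of NF-kappaB, 6 were higher and 2 lower. BIRC3, an inhibitor of apoptosis, rose from 1.27 and 1.5 to 4.88 and 7.63 RPKM and ICAM1, an adhesion molecule for leukocytes, from 2.42 and 2.4 to 5.5 and 4.93 RPKM, while the inhibitors NFKBIA and TNFAIP3 fell from 26.1 and 26.2 to 16.9 and 15.9 and from 18.1 and 18.5 to 13.1 and 11.8 RPKM. In the interleukin list 7 of 25 were higher and 6 lower. IL6, a cytokine of the acute phase, rose from 13.7 and 12.5 to 22.2 and 29.4 RPKM and the receptor IL21R fell from 6.23 and 6.39 to 2.97 and 3.04 RPKM. Of 13 chemokines, 2 were higher and 4 lower. CXCL8, a neutrophil attractant, rose from 13.2 and 14 to 20.9 and 30.2 RPKM, and CXCL12, the ligand of CXCR4, fell from 378 and 355 to 295 and 229 RPKM. The RPKM of CXCL12 was above that of CXCL8 in all 4 libraries. The NF-kappaB targets higher numbered 3 without labelled replicate 1, and the interleukin list had 4 higher and 3 lower without labelled replicate 2.

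Complement and coagulation genes were mostly lower, 16 of 25, with 5 higher and a median log2 fold change of -0.53. C7, a part of the membrane attack complex, fell from 23.2 and 22 to 5.33 and 4.19 RPKM, while SERPING1, the C1 inhibitor, fell from 4.57 and 5.4 to 1.27 and 1.14 RPKM. Tissue factor (F3), the starter of coagulation, went the other way, from 45.3 and 44.3 to 86.9 and 118 RPKM, and the protease receptor F2RL1 rose by 0.40 on the log2 scale. The count of lower members was 14 and 15 without a parental control and 16 with length-adjusted values. In the interferon list 18 of 42 genes were lower and 7 higher, with a median of -0.05. The membrane proteins IFITM1 and BST2 fell from 10.3 and 9.11 to 2.93 and 2.64 RPKM and from 9.85 and 6.92 to 3.81 and 3.58 RPKM, while OAS3 and DDX58, sensors of viral RNA, rose from 1.5 and 1.62 to 2.83 and 3.21 and from 2.77 and 2.81 to 4.43 and 4.59 RPKM. Without parental control 1 the lower members numbered 11 and without parental control 2 they numbered 13. Among 19 genes of HLA class I presentation, 2 were higher (TAP2 from 21.3 and 19.4 to 36.7 and 41.2 RPKM) and 4 lower, and HLA genes share reads among near-identical copies. Of 11 ligands of immune checkpoints, 4 were higher and 3 lower. CD274, which encodes PD-L1, rose from 0.779 and 0.637 to 1.93 and 2.13 RPKM and the poliovirus receptor PVR from 38.6 and 38 to 76.4 and 80.5 RPKM, while CD47, the signal against phagocytosis, fell from 36.1 and 34 to 22.1 and 24.4 RPKM and TNFRSF14 from 6.73 and 6.58 to 2.87 and 2.49 RPKM. The interferon list had 4 higher and 7 lower members without labelled replicate 2. The higher members of the complement list numbered 2 with labelled replicate 1 or 2 left out.

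**Figure D3:**
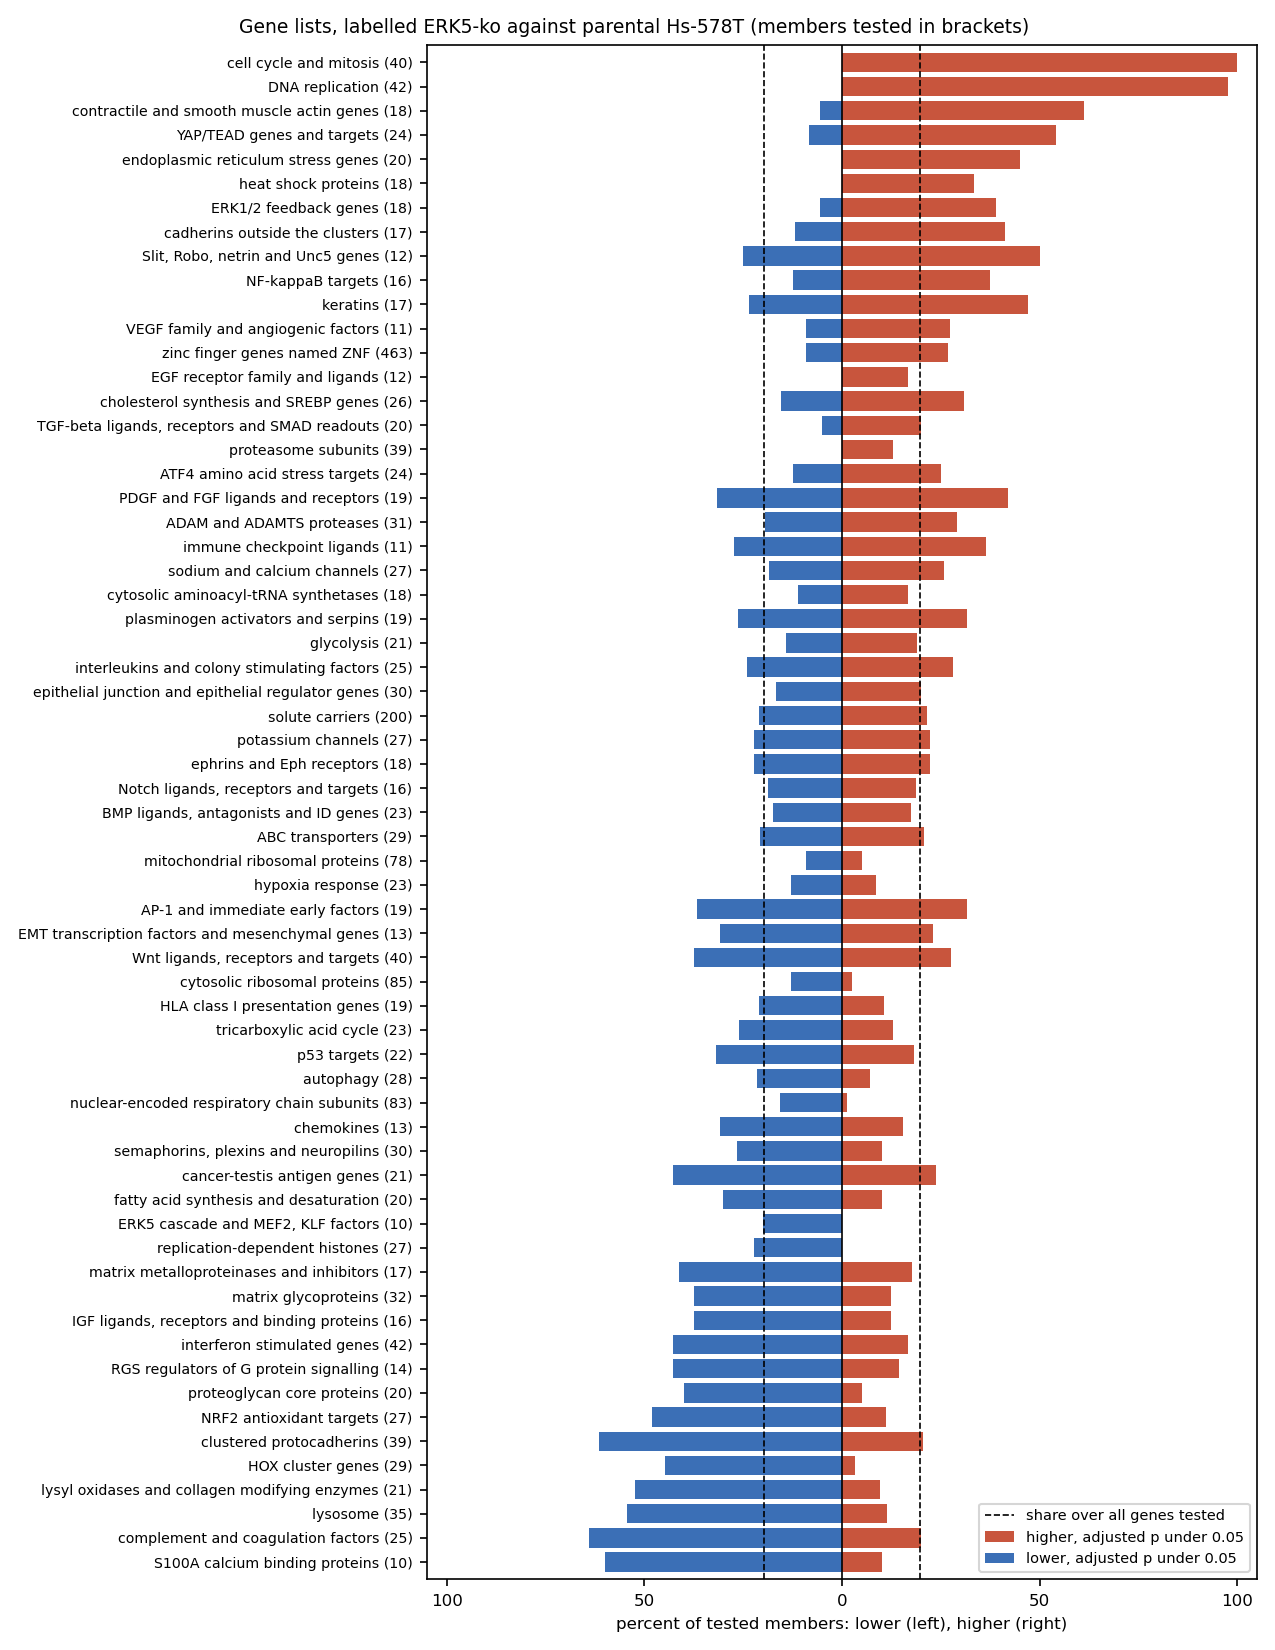
Percent of tested members of each gene list with at least 10 tested members that passed at an adjusted p under 0.05 as higher (right bars) or lower (left bars) in labelled ERK5-ko than in parental libraries, ordered by the difference of the shares. Dashed lines mark 19.7% in each direction over all tested genes, and the bars reach 100% higher in the cell cycle list and 64.0% lower in the complement list.

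Epithelial and mesenchymal genes moved in both directions, where the share over all tested genes was 19.7% in each. Of 13 EMT factors and mesenchymal genes, 3 were higher (23.1%) and 4 lower (30.8%). N-cadherin (CDH2) rose from 135 and 146 to 219 and 248 RPKM, while TWIST1 and PRRX1, transcription factors of mesenchyme, fell from 33.1 and 32.5 to 16.3 and 12.8 and from 154 and 164 to 87.1 and 81.5 RPKM. Of 30 epithelial junction genes and regulators, 6 were higher (20%) and 5 lower (16.7%), near the share over all tested genes. CLDN1, a tight junction claudin, rose from 0.515 and 0.296 to 2.75 and 2.43 RPKM, and CDH1, the epithelial cadherin, rose from 0.119 and 0.218 to 0.93 and 1.16 RPKM, close to the filter for low values. JUP, plakoglobin, fell from 52.9 and 61.5 to 17.4 and 13.2 RPKM (log2 fold change -1.88 ± 0.144) and the protease inhibitor SPINT1 from 1.9 and 1.89 to 0.39 and 0.563 RPKM. Keratins moved more than most lists, with 8 of 17 higher and 4 lower. KRT18, the keratin of simple epithelia, had 213 and 141 RPKM in parental controls 1 and 2 and 547 and 596 RPKM in the labelled libraries (adjusted p = 1.49e-05, limma), while its partner KRT8 fell from 50.7 and 46.9 to 29.7 and 27.9 RPKM. KRT14, a basal keratin, fell from 38.7 and 35.7 to 5.2 and 5.88 RPKM and had 147 and 118 RPKM in the MEK5DD libraries. KRT7 rose from 12.8 and 10.5 to 26.9 and 33.9 RPKM and KRT16 fell from 6.55 and 5.98 to 2.72 and 2.41 RPKM. Keratin genes share sequence with each other and with pseudogenes, and KRT18 and KRT8 overlap on opposite strands. None of the 13 EMT genes was higher without labelled replicate 2.

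Of 10 S100A calcium binding proteins, 6 were lower and 1 higher, but only 1 was lower without parental control 1 and 8 without parental control 2. S100A4, a protein of motile cells, had 117 and 83.5 RPKM in parental controls 1 and 2 and 65.2 and 61 RPKM in the labelled libraries, and S100A13 had 108 and 71.5 against 59 and 51.6 RPKM. In both, the labelled libraries lay nearer to parental control 2. Among 9 genes used as breast stem cell markers, 2 were higher and 3 lower. The list does not separate genes by whether a high or a low level marks such cells, so these counts give no direction. CD44, the hyaluronan receptor and among the most expressed genes that were higher, rose from 969 and 1048 to 1581 and 1695 RPKM. CD24 fell from 86.9 and 78.6 to 37.7 and 35.1 RPKM, and ALDH1A3, an aldehyde dehydrogenase, from 43.4 and 51.2 to 25.5 and 30.2 RPKM. Of the hormone receptor list, 2 of 4 tested members were higher, GATA3, a luminal factor, from 3.77 and 4.76 to 9.21 and 9.34 RPKM and FOXA1 from 1.24 and 1.14 to 1.77 and 1.85 RPKM. FABP4, the fatty acid carrier of adipocytes, was higher, at 2.98 and 3.21 against 25.7 and 26.3 RPKM, and CD68 was lower, at 37.9 and 43.6 against 25.6 and 23.2 RPKM. Of 3 tested endothelial genes 1 was lower and none higher, with a median log2 fold change of 0.19. The lower one was the factor ERG, from 5.71 and 6.13 to 4.39 and 4.57 RPKM. PECAM1 went the other way without passing, from 5.39 and 5.72 to 6.48 and 6.31 RPKM. The S100A list also had 1 lower member without labelled replicate 2.

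Cell adhesion and guidance genes changed by single members, where the share over all tested genes was 19.7% in each direction. Of 17 cadherins outside the clusters, 7 were higher and 2 lower. CDH12 rose from 5.14 and 6.41 to 26.2 and 27.7 RPKM, and T-cadherin (CDH13) fell from 150 and 171 to 112 and 109 RPKM. Of 39 clustered protocadherins, 8 were higher and 24 lower, but the latter count is not one of separate genes. All 22 tested entries of the gamma cluster were lower, with log2 fold changes from -0.85 to -0.64, and these entries share their last exons and may share reads. PCDHGC3, their most expressed entry, had 93.7 and 118 against 58.3 and 57.6 RPKM. In the beta cluster, whose genes are single exons, 7 of 15 were higher and 2 lower, with PCDHB16 at 3.77 and 5.91 RPKM in the parental and 13 and 12.1 RPKM in the labelled libraries. Receptors of netrin were higher, NEO1 from 0.981 and 1.11 to 7.55 and 7.68 RPKM and DCC from 0.095 and 0.21 to 2.3 and 1.99 RPKM, in a list of Slit, Robo, netrin and Unc5 genes with 6 of 12 higher (2 without parental control 1) and 3 lower. ROBO2, a receptor of Slit, fell from 2.42 and 3.73 to 1.62 and 1.63 RPKM. In the semaphorin list 3 of 30 were higher (7 without parental control 2) and 8 lower (13 without parental control 1). PLXNA4 rose from 0.623 and 1.35 to 3.8 and 3.3 RPKM, and the secreted SEMA3B and the transmembrane SEMA5A fell from 8.69 and 7.61 to 2.8 and 2.43 and from 37.5 and 71.4 to 22.3 and 18.2 RPKM. Of 18 ephrins and Eph receptors 4 were higher and 4 lower (7 with length-adjusted values), among them the receptor EPHA6 from 0.491 and 0.313 to 2.02 and 2.12 RPKM and the ligand EFNA1 from 5.71 and 5.02 to 2.07 and 2.56 RPKM. The Slit and netrin list also had 2 higher without labelled replicate 2.

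Outside the collagens, integrins and laminins, matrix genes were more often lower than higher. Of 32 matrix glycoproteins, 12 were lower and 4 higher (8 without parental control 2). MATN2, a matrilin, fell from 10.4 and 11 to 1.69 and 2.18 RPKM and NID2 from 11.6 and 16.8 to 1.98 and 1.41 RPKM, while tenascin C (TNC) rose from 2.3 and 3.56 to 9.51 and 8.84 RPKM and MFAP5 from 0.196 and 0.108 to 5.54 and 6.55 RPKM. Of 20 proteoglycan core proteins, 8 were lower and 1 higher, OMD among the former at 2.83 and 1.74 against 0.0935 and 0.118 RPKM and PODN the latter at 4.67 and 4.95 against 8.17 and 7.61 RPKM. Enzymes that process collagen were lower in 11 of 21 cases (7 without parental control 1) and higher in 2. LOXL1, a crosslinking lysyl oxidase, fell from 260 and 281 to 72.4 and 55.3 RPKM (log2 fold change -2.09 ± 0.126), and PCOLCE, an enhancer of procollagen cleavage, from 774 and 759 to 340 and 287 RPKM. P3H2 and PLOD2, hydroxylases of procollagen, rose from 139 and 130 to 220 and 220 and from 186 and 201 to 252 and 272 RPKM. TGFBI, an adhesive matrix protein and among the most expressed genes that were lower, had 2537 and 2602 against 2041 and 1867 RPKM. The collagen enzymes lower also numbered 7 without labelled replicate 2.

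Proteases went both ways, where 19.7% of all tested genes were higher and 19.7% lower. Of 17 matrix metalloproteinases and inhibitors, 7 were lower and 3 higher. MMP14, a membrane-bound collagenase, fell from 368 and 445 to 193 and 175 RPKM and MMP11, stromelysin 3, from 25.3 and 24.8 to 4.4 and 3.09 RPKM, while MMP3, stromelysin 1, rose from 0.322 and 0.254 to 2 and 3.08 RPKM and MMP16 from 14.8 and 22.5 to 29.3 and 32.3 RPKM. In the ADAM and ADAMTS list 9 of 31 were higher and 6 lower. ADAMTS9 had 2 and 1 reads in the parental controls and 2.57 and 3.65 RPKM in the labelled libraries, a ratio of reads scaled to library totals of 147 (95% exact interval 50 to 716). ADAMTS14, a procollagen peptidase, fell from 7.97 and 9.35 to 3.35 and 2.49 RPKM. Of 19 plasminogen activators and serpins, 6 were higher and 5 lower. SERPINB7 rose from 0.215 and 0.169 to 4.36 and 5.53 RPKM and SERPINF1, an antiangiogenic factor, fell from 2.77 and 4.12 to 0.472 and 0.569 RPKM. The ADAM and ADAMTS genes lower numbered 3 without labelled replicate 2.

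In the growth factor lists single ligands, receptors and antagonists changed in both directions. The share over all tested genes, beside which these counts stand, was 19.7% in each direction. In the PDGF and FGF list 8 of 19 were higher, FGF2 from 4.07 and 4.78 to 7.48 and 8.88 RPKM among them, and 6 lower, FGF13 from 5.49 and 5.05 to 2.09 and 2.18 RPKM among them. NRG1, the ligand of ERBB3 and ERBB4, rose from 17.7 and 21.4 to 38.7 and 49.3 RPKM, 1 of 2 higher of 12 in the EGF receptor list, where none was lower. Among 16 IGF genes 2 were higher and 6 lower. IGFBP5 fell from 8.36 and 11.9 to 1.67 and 1.33 RPKM and had 51.3 and 55.4 RPKM in the MEK5DD libraries, and IGFBP4 fell from 687 and 705 to 282 and 231 RPKM, while the receptor IGF1R rose from 6.24 and 8.72 to 13.4 and 14.8 RPKM. The receptor kinases AXL and MET rose from 486 and 435 to 711 and 716 and from 61.5 and 66.5 to 105 and 116 RPKM, while GAS6 and PROS1, the ligands of AXL and its relatives, fell from 93.9 and 84.1 to 54.4 and 47.4 and from 19.4 and 22.7 to 10.9 and 11.5 RPKM, 2 higher and 2 lower of 8. Of 11 VEGF and angiogenic genes 3 were higher and 1 lower, with VEGFC, a lymphatic growth factor, from 27.7 and 27 to 42.7 and 43.4 RPKM and endothelin 1 (EDN1) from 7.94 and 5.57 to 13.1 and 14.6 RPKM. BDNF was the only higher member of 8 neurotrophin genes, from 2.96 and 3.17 to 4.86 and 5.61 RPKM, and none was lower. The PDGF and FGF genes higher numbered 5 without labelled replicate 2.

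In the TGF-beta list 4 of 20 were higher and 1 lower, where 19.7% of all tested genes passed in each direction. INHBA, the activin A chain, rose from 38.5 and 42.6 to 90.6 and 105 RPKM and the ligand TGFB3 fell from 19.8 and 18.8 to 8.1 and 7.22 RPKM. The activin antagonist FST, follistatin, rose with it, from 18.6 and 15.3 to 79.1 and 86.9 RPKM (log2 fold change 2.26 ± 0.109), in a BMP list with 4 of 23 higher and 4 lower. GDF6, a BMP ligand, rose from 6.69 and 7.18 to 23.9 and 25.4 RPKM and the BMP antagonist NBL1 fell from 230 and 243 to 91.2 and 75.6 RPKM. Of 40 Wnt genes 11 were higher (4 without parental control 1) and 15 lower. The antagonist DKK1 rose from 11 and 6.89 to 22.1 and 25 RPKM and the receptor ROR2 from 1.42 and 1.22 to 4.15 and 3.62 RPKM, while SFRP2, a decoy of Wnt, and NOTUM, a Wnt deacylase, fell from 40 and 42.2 to 11.1 and 9.95 and from 3.27 and 3.15 to 0.9 and 0.553 RPKM. In the Notch list 3 of 16 were higher and 3 lower, with the ligand JAG1 from 116 and 107 to 179 and 174 RPKM and the receptor NOTCH3 from 30.6 and 41.1 to 23.5 and 16.4 RPKM. The Wnt genes higher also numbered 4 with labelled replicate 1 or 2 left out.

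Genes of protein folding were higher in part, and none of both lists was lower. Of 20 endoplasmic reticulum stress genes, 9 were higher, with HYOU1, a chaperone of the reticulum, at 183 and 221 against 347 and 396 RPKM and HSP90B1 (GRP94) at 882 and 1069 against 1440 and 1683 RPKM. CANX, calnexin, rose from 1047 and 1220 to 1389 and 1615 RPKM. Of 18 heat shock proteins, 6 were higher, with HSPA4L from 1.5 and 2.14 to 4.55 and 5.43 RPKM and the small heat shock protein HSPB8 from 37 and 33.6 to 57.9 and 68 RPKM. For the endoplasmic reticulum list the count was 5 without parental control 1 and 8 without parental control 2. Of 24 ATF4 targets 6 were higher and 3 lower (2 and 1 without parental control 1), with SLC7A11, the cystine transporter, at 17.7 and 25.5 against 33.5 and 37.3 RPKM and PSPH, of serine synthesis, at 71.1 and 61.2 against 43.9 and 43.7 RPKM. Targets of the antioxidant factor NRF2 were lower in 13 of 27 cases and higher in 3, with a median of -0.30. FTL and FTH1, the ferritin chains, fell from 2509 and 2390 to 1439 and 1287 and from 2486 and 2605 to 1534 and 1415 RPKM, ABCC3 from 38.5 and 46.4 to 6.64 and 5.76 RPKM, and TXNRD1, thioredoxin reductase, rose from 133 and 143 to 167 and 237 RPKM. Of 6 metallothioneins 1 was higher and 1 lower, and their copies share sequence. Without labelled replicate 2 the higher members numbered 5 in the endoplasmic reticulum, 3 in the heat shock and 1 in the ATF4 list, and none of the NRF2 targets was higher.

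Counts of the ribosomal and respiratory lists turned on the libraries used. Of 85 cytosolic ribosomal proteins 11 were lower and 2 higher (6 with length-adjusted values), with a median log2 fold change of -0.21. The lower members numbered 3 without parental control 1 and 25 without parental control 2, and the median difference of parental control 2 minus 1 was -0.34 in this list of short genes. RPL13 fell from 675 and 557 to 285 and 252 RPKM and RPL12 from 957 and 864 to 589 and 563 RPKM. Of 83 nuclear-encoded respiratory chain subunits 13 were lower and 1 higher, NDUFB5 of complex I at 94.1 and 74.3 against 50.2 and 50.2 RPKM among the former, and the lower members numbered 6 and 21 without parental controls 1 and 2. Of 78 mitochondrial ribosomal proteins 4 were higher and 7 lower (7 and 2 without parental control 1, 1 and 9 without parental control 2, 10 and 7 with length-adjusted values), of 18 aminoacyl-tRNA synthetases 3 were higher and 2 lower, and of 39 proteasome subunits 5 were higher (11 with length-adjusted values) and none was lower (4 without parental control 2). The elongation factors EEF1A1 and EEF2 fell from 3139 and 2892 to 1848 and 1974 and from 4605 and 4709 to 3675 and 3578 RPKM, and under quantile normalization the log2 fold change of EEF2 was 0.00. The lower members numbered 7 and 4 in the cytosolic ribosomal, 8 and 6 in the respiratory and 3 and 4 in the mitochondrial ribosomal list without labelled replicates 1 and 2. Without labelled replicate 2, 1 mitochondrial ribosomal gene and no proteasome gene was higher.

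Of the lysosome genes, 19 of 35 were lower and 4 higher, with a median of -0.30. GAA, the lysosomal alpha-glucosidase, fell from 44 and 46.1 to 15.5 and 11.8 RPKM and CTSO, a cathepsin, from 4.26 and 5.16 to 1.47 and 1.32 RPKM, while NPC1, the cholesterol exporter, rose from 43.4 and 52.9 to 67.6 and 74.5 RPKM. The lower members numbered 12 without parental control 1, 15 without parental control 2 and 17 with length-adjusted values. Autophagy genes had 2 of 28 higher, RB1CC1 from 51.4 and 68.7 to 91 and 103 RPKM among them, and 6 lower, WIPI1 from 60.4 and 69.4 to 40.2 and 41.1 RPKM among them. Of 21 glycolysis genes 4 were higher and 3 lower, where the share over all tested genes was 19.7% in each direction. PFKP, a phosphofructokinase, rose from 167 and 165 to 233 and 238 RPKM, and GAPDH, often taken as a reference gene, fell from 3498 and 2797 to 1922 and 1773 RPKM. SLC16A3, the lactate exporter MCT4, fell from 36.4 and 34.7 to 8.44 and 6.3 RPKM. Of 23 hypoxia genes 2 were higher and 3 lower, with VEGFA at 108 and 109 against 139 and 148 RPKM. In the tricarboxylic acid cycle 3 of 23 were higher and 6 lower, IDH2 from 46.1 and 44.7 to 23.4 and 19.6 RPKM among the latter. Of 26 cholesterol and SREBP genes 8 were higher (5 without parental control 1) and 4 lower, with MVD, of the mevalonate pathway, among the lower ones from 127 and 122 to 77.4 and 79.7 RPKM. Of 20 fatty acid genes 2 were higher and 6 lower, the elongase ELOVL6 from 14.5 and 15.5 to 24.8 and 33.6 RPKM and the synthetase ACSL5 from 5.88 and 6.3 to 2.37 and 2.03 RPKM. The lysosome genes numbered 1 higher and 12 lower without labelled replicate 2, where 3 cholesterol genes were higher and no hypoxia gene was lower. The glycolysis genes higher numbered 1 with labelled replicate 1 or 2 left out.

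Transporters and channels stood near the background as families. Of 200 solute carriers 43 were higher (27 without parental control 1) and 42 lower, of 29 ABC transporters 6 and 6, of 27 potassium channels 6 and 6, of 27 sodium and calcium channels 7 and 5 (9 lower with length-adjusted values), and of 9 aquaporins and connexins 1 and none. Single channels changed more. KCNMB1, the beta subunit of the smooth muscle BK channel, rose from 0.129 and 0.171 to 4.32 and 4.1 RPKM, CACNG7 from 2.87 and 2.84 to 16.5 and 16.4 RPKM and the sodium channel SCN3A from 13.8 and 18.3 to 32.4 and 37.1 RPKM, while TRPC1, a cation channel, fell from 9.71 and 11 to 4.67 and 4.3 RPKM. The efflux pumps ABCB1 and ABCG2 rose from 0.454 and 0.816 to 1.54 and 1.71 and from 2.02 and 2.16 to 3.14 and 4.3 RPKM. Without labelled replicate 2 the higher members numbered 22 of the solute carriers and 2 of the potassium channels.

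Families of transcription factors are given with their own counts. Of 29 HOX genes 13 were lower and 1 higher, with a median of -0.28, and 15 were lower with length-adjusted values. HOXA5 and HOXA3 fell from 6.71 and 7.4 to 3.38 and 2.79 and from 8.94 and 9.68 to 4.61 and 4.35 RPKM, and neighbouring genes of the cluster overlap. Of 463 zinc finger genes named ZNF, 124 were higher and 42 lower, with a median of 0.19. Without parental control 1 these were 82 and 35, and with length-adjusted values 116 and 56. ZNF578 rose from 0.269 and 0.326 to 2.62 and 2.16 RPKM and ZNF688 fell from 11.6 and 10.6 to 4.43 and 3.75 RPKM. Of 7 SOX factors 2 were higher and 3 lower. SOX6 rose from 0.127 and 0.26 to 5.39 and 5.49 RPKM (log2 fold change 3.11 ± 0.139), SOX9 from 5.01 and 5.73 to 9.34 and 9.77 RPKM, and SOX4 fell from 26.8 and 30.9 to 16.4 and 16.4 RPKM. Among 21 cancer-testis antigen genes 5 were higher and 9 lower. SPANXN3 had 2 reads in each parental control and 32 and 43 reads in the labelled libraries, a ratio scaled to library totals of 16.2 (95% exact interval 6.07 to 61). SSX3 rose from 0.365 and 0.704 to 4.69 and 2.97 RPKM. Both genes have near-identical copies that leave their reads uncertain. The ZNF genes numbered 65 higher and 23 lower without labelled replicate 2.

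**Figure D4:**
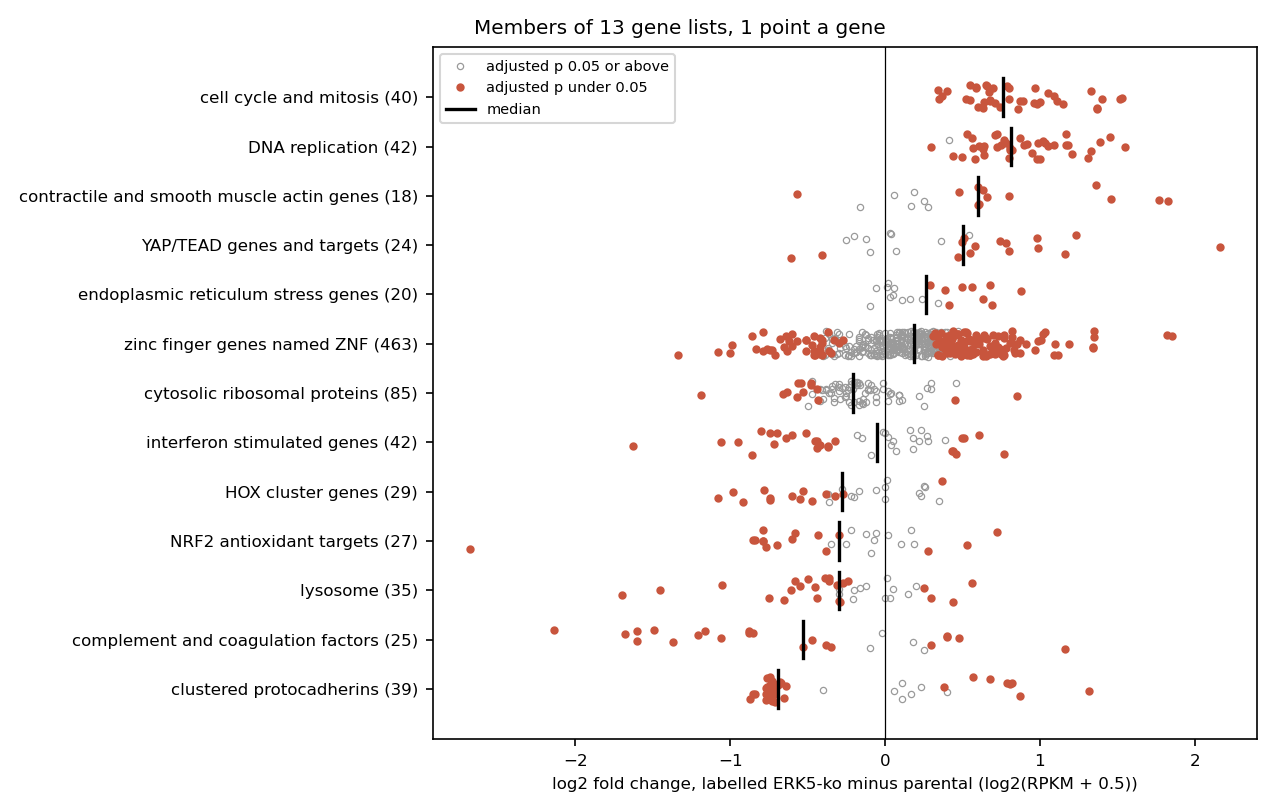
Log2 fold change of labelled ERK5-ko minus parental libraries, on the log2(RPKM + 0.5) scale, for each tested member of 13 gene lists, with filled points at an adjusted p under 0.05, open points above it and a bar at the median of the list. The cell cycle and DNA replication members lie wholly right of 0, while the gamma protocadherins form 1 tight group between -0.85 and -0.64.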

How the data were processed

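Stranded mRNA libraries of 2 cell lines, 12 in all, were made by the study. Per the submitters' processing notes, the authors used bcl2fastq, Trimmomatic 0.32, TopHat2 2.1.1, R 3.3.1 and DESeq2 1.12.4 with GRCh38, and they deposited RPKM values. The counting tool, its strand setting and its annotation are not given in the sources used here. Columns of the authors' own comparisons were not used.

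RPKM gave whole reads for 100.0% of 32152 genes, from which library totals, reads and counted lengths were recovered. Protein-coding genes that reached 0.5 RPKM in 2 or more libraries entered the fit on log2(RPKM + 0.5) with limma 3.58.1 (R 4.3.3), with 6 group means over 12 libraries, a variance trend and Benjamini-Hochberg adjustment. An exact permutation test of 2 against 2 libraries cannot go below p = 0.333. Named were the 12 called genes of highest and lowest log2 fold change with a mean RPKM of at least 1, up to 2 per list and direction, the most expressed genes that passed, and the 5 genes per direction that differed most between parental controls. POLE2 and MEF2C fall outside this rule and were chosen after their values were seen, while CDH1 and KRT8 are cell markers. The members and lists were chosen with earlier results of these data known. In simulated data, 95% of 200 changed and 4 of 13537 unchanged genes were called. The simulation gave every gene and group the same dispersion and had no trend with length. These rates therefore do not carry over to the measured libraries. A few genes picked by these rules are not reported here. Promoters came from RefSeq. Alternatives are given in the closing section.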

Additional observations from a re-analysis of the deposited data

Results flagged for a closer look

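The change of MAPK7 and of the 12 genes with the highest and the 12 with the lowest log2 fold change was also taken in MDA-MB-231, the other triple-negative line of the series, and the difference of the changes (Hs-578T minus MDA-MB-231) was tested in limma. All but MAPK7 (difference -0.03, adjusted p = 0.874) passed, but these 24 genes were chosen for their change in Hs-578T, so the test is no independent evidence that the lines differ. The log2 fold change in MDA-MB-231 was 0.00 for 8 of the 24, and the values are given as a description. On this scale a gene near 0 RPKM in both MDA-MB-231 groups gives 0.00. The RPKM values of that line are not given here, so 0.00 need not mean an expressed gene that stayed unchanged.

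Among genes higher in Hs-578T libraries labelled ERK5-ko, the difference in log2 fold change was 5.80 for RNASE1, 4.67 for CLIC2, 4.49 for PLXDC2, 4.35 for IL7R, 4.06 for SPINK1, 3.93 for KRTAP7-1 and 3.92 for TMTC2. It was 3.37 for SGCD, 3.36 for ADD2, 3.33 for MFAP5, 3.32 for LUZP2 and 2.80 for STK31. IL7R and CLIC2 had log2 fold changes of -0.83 and -0.76 in MDA-MB-231.

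Among the lower genes it was -6.71 for CYTL1, -3.92 for COX7A1, -3.74 for SECTM1, -3.52 for ABCC3, -3.35 for SLC14A1, -3.31 for ASPN, -3.13 for PI15 and -3.11 for TMEM119. It was -3.04 for PAGE5, -3.00 for L1CAM, -2.74 for NID2 and -2.58 for PAGE2. SECTM1 and ABCC3 had log2 fold changes of 1.03 and 0.85 in MDA-MB-231.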

How the results depend on the processing

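Against 1285 genes called higher and 449 called lower, a pseudocount of 0.1 called 710 lower, limma voom on recovered reads 788 and a symmetric fold of 1.5 called 1343 lower. At the adjusted p alone, the 6 Hs-578T libraries gave 1431 higher and 1612 lower genes (27 of the cell cycle and 36 of the replication list higher) and the 4 compared libraries gave 1800 higher. In the fit of the 6 libraries, 8 YAP/TEAD and 8 contractile genes were higher. There, 15 complement, 9 interferon, 9 lysosome and 2 cytosolic ribosomal genes were lower. With 1 library left out, where the lone library is assumed to vary like the other groups, 1016 to 1690 genes were called higher, 391 to 533 called lower, 1467 to 2766 passed as higher and 1690 to 2511 as lower, and the lowest values, 1467 and 1690, came without replicate 2 labelled ERK5-ko. Length-adjusted values, chosen after seeing the data, called 1144 higher and 463 lower, of which 1049 and 412 were shared. The share of calls that were higher was 74.1% and ranged from 65.8% to 79.5% over the alternatives that kept the thresholds, and it was 48.9% with the symmetric fold. With the MEK5DD libraries as the comparison group, 2107 genes were called higher and 4224 passed as higher.

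The replicate numbers are not stated to mark a shared batch, and replicate differences correlated at 0.107 between the parental and labelled groups, at 0.541 between the parental and MEK5DD groups and at 0.154 to 0.187 for the other pairs of groups of a line. With the replicate block, 1313 genes were called higher and 449 lower, and 3365 and 3167 passed. The block raised the lower members to 25 of 85 cytosolic ribosomal, 25 of 83 respiratory and 15 of 78 mitochondrial ribosomal genes.

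Against the MEK5DD libraries the log2 fold change had the other sign, or was 0, for ICAM1 (-0.29), TNFAIP3 (0.46), CXCL8 (-0.79), CXCL16 (0.33), CXCL12 (0.62), C7 (1.05), CD274 (-0.01), EFNA1 (0.00), NTNG2 (0.08), TNC (-0.28), FGF2 (-0.35), FGF13 (1.01), PDGFRL (0.31), PDK3 (0.65) and ERG (0.14). Under quantile normalization EEF2 was at 0.00. The cause was not tested. Some but not all of the genes named for the spread between parental controls turned sign with 1 parental control left out. Over the libraries left out, the log2 fold changes of those that did were -0.02 to 1.52 for DST, -0.91 to 0.53 for PRUNE2, -0.22 to 1.18 for HECTD4, -2.80 to 0.58 for FOS, -1.44 to 0.66 for FOSB, -0.68 to 1.21 for ATP5EP2 and -0.87 to 0.64 for DUSP1.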
